A study of Mus musculus with 2 samples.

Results

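The genes described here are 8 single-copy miRNA genes known from brain, Mir137, Mir149, Mir153, Mir346, Mir383, Mir488, Mir598 and Mir708, each with the gene on the same strand that holds its hairpin (the host gene). They were taken by name from 1973 miRNA genes counted in midbrain of mouse embryos, with earlier results of these data known. The study held 1 group, mice of strain B6NCrl at embryonic day 16.5 with no treatment named in its labels, and 2 libraries of short RNA with inserts below 30 nt. The libraries came from separate pools of male and female embryos, and the pool of replicate 2 held 37 of them. The count tables covered miRNA genes, so the transcripts of the host genes were not analysed here and enter by their annotation.

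A miRNA is cut from a hairpin, first in the nucleus and then in the cytoplasm, and one arm of the hairpin is loaded into an Argonaute protein. That arm pairs with target mRNAs mainly through its seed, bases 2 to 8 counted from the 5′ end, and lowers their translation and stability. Many hairpins lie in introns and are made from the transcript of the host gene, so that host and miRNA can share a promoter. Mir137 is known for roles in neural progenitors, dendrites and synapses, and Mir153 for targets in synaptic vesicle release.

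RefSeq sequences (build GRCm38.p6, the assembly mm10) matched 6 of the 8 genes, with 12 mature arms. The arms below are shown because the seed defines which targets a miRNA can pair with, and because they let the genes be told apart. Bases 2 to 8 are in capitals. The gene counts join both arms, so no level is given for a single arm. The first 6 lines are members, and the last is the only other detected gene at 100 CPM or more that shares a seed with one of them.
miR-137-3p: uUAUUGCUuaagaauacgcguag
miR-153-3p: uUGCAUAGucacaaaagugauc
miR-149-5p: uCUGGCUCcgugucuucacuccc
miR-708-5p: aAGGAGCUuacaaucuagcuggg
miR-488-3p: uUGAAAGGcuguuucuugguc
miR-346-5p: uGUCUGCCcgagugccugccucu
miR-28a-5p: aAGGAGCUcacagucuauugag

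The 12 arms had 12 distinct seeds, so no pair of these 6 genes formed a seed family. Mir383 and Mir598 had no sequence in the RefSeq table and were not checked. Of the 12 arms, 5 began with U, against 41.3% of the 1738 mature arms in the RefSeq table. For 3 of the 12 the seed was also that of an arm of another gene, against 32.0% of all arms. These were miR-708-5p with miR-28a-5p, miR-149-3p with arms of Mir7016, Mir1943, Gm27775 and Gm27740, and miR-346-3p with an arm of Mir7001. The arms miR-708-5p and miR-28a-5p shared a run of 8 bases. The other 5 genes held from 0 to 15 reads in a library.

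The hairpins were checked for near-identical copies within the RefSeq table, and whether the miRNAs come from neurons cannot be tested in whole tissue. For the 5 members with a hairpin there, the longest run of bases shared with any other of the 1005 hairpins, on either strand, was 10 to 14 bases. The arms of Mir708 shared at most 13 bases with another hairpin. The copies of mir-128, a neuronal miRNA with a pair of genes, shared 23 bases with each other, and those of mir-138 shared 24. Other neuronal genes listed for comparison had runs as short as the members, 10 bases for Mir132, 11 for Mir212 and 14 for Mir135b and Mir7b. The rest of that list with a hairpin there shared 22 to 65 bases. A short run is thus not particular to the members. The genome outside annotated hairpins was not searched. The hairpins of Mir149 and Mir346 were rich in G and C, at 68.2% and 65.3%, against a median of 51.7% over all hairpins, while those of Mir137, Mir153 and Mir488 lay between 42.0% and 45.2%.

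All 8 genes lay within a gene of their own strand in GENCODE M21, on mm10. The set was chosen as single-copy genes with the host gene of each, so this count is not independent of the choice. A host was found for 292 of the 411 detected genes (71.0%), detected meaning 10 or more sense reads in both libraries. Mir137 was the only member over an exon. It lies on chromosome 3 from 118433857 to 118433929, plus strand, inside the long non-coding gene Gm26871 (118430324 to 118530022), 3.53 kb from its start. An exon overlapped the hairpin in 3 of the 6 transcripts of Gm26871, and in the longest transcript that holds the hairpin that was exon 1. The other 7 members were intronic, against 47.9% of detected genes, and their 7 hosts coded for proteins, against 50.6% of detected genes with a coding host.

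Hosts that act at the synapse or in secretion held Mir153 and Mir346. Mir153 (chromosome 12, 117250817 to 117250885, plus strand) is in intron 19 of Ptprn2, which encodes a membrane protein of dense-core vesicles. That intron is 4.90 kb long, and the hairpin sits 96.7% of the way along the 791 kb gene. Mir346 (chromosome 14, 34894609 to 34894706, plus strand) is in intron 2 of Grid1, the gene of the glutamate receptor subunit delta-1. This intron spans 123 kb, and the hairpin is 74.5 kb from the start of Grid1. Both hosts are long genes, yet one hairpin is near the 3′ end and the other near the 5′ end.

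Hosts of the cell surface held Mir149, Mir488 and Mir708. Mir149 (chromosome 1, 92850378 to 92850443, plus strand) is in intron 1 of Gpc1, a heparan sulfate proteoglycan, 2.90 kb before the next exon. Mir488 (chromosome 1, 158505625 to 158505733, plus strand) is in intron 5 of Astn1, an adhesion protein of migrating neurons. It begins 155 bases after the exon before it, the shortest such distance among the 7 intronic members. Mir708 (chromosome 7, 96249424 to 96249532, plus strand) is in intron 1 of Tenm4, a teneurin, one of the large adhesion proteins that guide connections between neurons.

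The remaining pair lay in first introns as well. Mir598 (chromosome 14, 63727189 to 63727267, plus strand) is in intron 1 of Xkr6, a membrane protein of the XK family, 120 kb after exon 1. Mir383 (chromosome 8, 38252133 to 38252202, minus strand) is in intron 1 of Sgcz, the gene of zeta-sarcoglycan. The intron of Sgcz that holds it is 708 kb long, the longest among the members. Intron numbers are those of the longest protein-coding transcript that contains the hairpin.

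Most hosts were long and most hairpins stood alone, the latter in part by choice, as clustered neuronal genes were listed apart. The median host length was 535 kb for the members and 49.5 kb for all hosted detected genes. Of the 8 hosts 6 exceeded 100 kb, against 33.9% of hosted detected genes. Gpc1, the host of Mir149, was the shortest at 29.1 kb. In the background a host was counted once for each detected miRNA gene it held, so these are not medians over distinct hosts. For 7 of the 8 members the nearest other miRNA gene analysed was more than 10 kb away, against 54.7% of detected genes. The exception was Mir137, with Gm24155 lying 792 bases from it and also inside Gm26871, and Gm24155 held 4 reads in replicate 1 and 0 in replicate 2. Tenm4 also holds Mir6394, 56.1 kb from Mir708, and Mir6394 had 0 reads in both libraries. A count of 0 allows up to 0.488 CPM in replicate 1 and 0.565 CPM in replicate 2, at 3 reads, for counting error only.

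**Figure D1:**
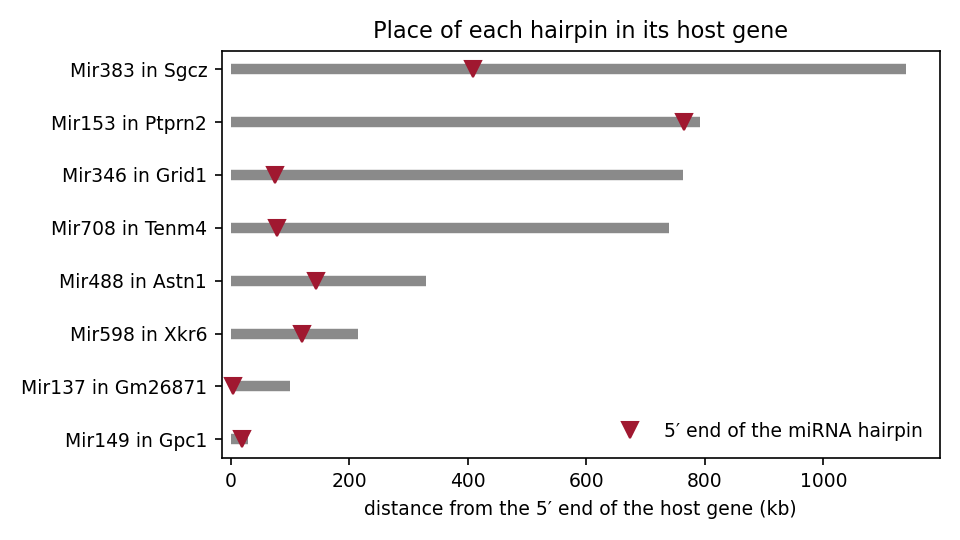
Place of each hairpin in its host gene. Grey bars show the length of each host gene in kb from its 5′ end, and red triangles mark the 5′ end of the hairpin. Mir153 sits 96.7% of the way along Ptprn2, while Mir346 and Mir708 sit 9.76% and 10.6% of the way along Grid1 and Tenm4.

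Replicate 1 held 6151299 sense reads of miRNA genes and replicate 2 held 5312642. Levels are reads per 1000000 of these (CPM), so that 1 read is worth 0.163 CPM in the former and 0.188 CPM in the latter. Ranks and folds between genes compare reads. How the reads of each miRNA relate to its number of molecules was not tested, and both libraries could share such a bias. Reads that mapped to several places, 35.3% and 36.5% of all reads, were listed apart and belong to no gene. In bulk tissue a lower level can come from fewer cells of a type or from less RNA per cell, and these cannot be told apart. Of markers for other cells, the endothelial Mir126a stood at 23067 and 24810 CPM in replicates 1 and 2. Of 6 mural and mesenchymal genes 4 were detected, with Mir145b at 0. They summed to 6435 and 6155 CPM, of which Mir143 alone made up 6170 and 5897. The choroid plexus and pigment epithelium pair summed to 2460 and 2034 CPM, of which Mir204 made up 2444 and 2016. The 3 oligodendrocyte genes summed to 1524 and 1700, the 7 epithelial genes to 1327 and 689, and the 4 blood genes to 410 and 487. Of 5 muscle genes 1 was detected, and Mir1a-1, Mir133a-1 and Mir133a-2 had 0 reads. The muscle genes at 0 are numbered copies, so reads matching several copies would be missing from them, and 0 does not show absence. Why Mir145b had 0 reads was not tested. Among markers of neurons, Mir9-3 stood at 363 and 447 CPM. The mir-124 genes and Mir9-2 were far lower, with Mir124a-1 the highest of them at 5.36 and 4.71 CPM. The mir-124 and mir-9 genes have several copies, and the hairpins of Mir9-3 and Mir9-1 shared a run of 26 bases. Reads that match several copies belong to no gene here, so these counts do not measure how much mir-124 or mir-9 was present.

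All 8 members were detected, against 20.8% of the 1973 genes in the tables. They held 347415 reads in replicate 1, 5.65% of sense reads (95% Wilson interval 5.63 to 5.67), and 293696 reads in replicate 2, 5.53% (5.51 to 5.55). The mean was 5.59% ± 0.085 (SD, n = 2). Intervals cover counting error only, as reads of amplified libraries are not independent molecules. The median member stood at 4200 CPM, and the median detected gene at 108 CPM. Mir149, Mir137 and Mir153 made up 83.0% of the members' reads in replicate 1 and 83.3% in replicate 2, and the lowest 3, Mir383, Mir488 and Mir346, made up 1.63% and 1.97%.

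Mir137 had 97593 reads in replicate 1, or 15865 CPM, and 76236 reads in replicate 2, or 14350 CPM, a mean of 15108 ± 1072 CPM (SD, n = 2). It ranked 15 among all genes in each library. Its level was the second of the 8, and its neighbours over all genes were Mir181c above, at 16141 ± 782 CPM, and Mir135b below, at 12829 ± 996. Mir181c lay within 1 SD of Mir137, and the ranges of these genes over the libraries overlapped.

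Mir153 stood at 6142 and 5594 CPM in replicates 1 and 2, a mean of 5868 ± 388. Its neighbours in level were Mir143, a miRNA of smooth muscle and mesenchyme, at 6033 ± 193, and Mir22 at 5819 ± 355, and neither lay apart from it by more than the SD. Mir346, in the other synaptic host, was far lower, with 1210 reads or 197 CPM in replicate 1 and 1459 reads or 275 CPM in replicate 2, a mean of 236 ± 55.1. The libraries of Mir346 spread more, relative to the mean, than those of any other member, with a coefficient of variation of 23.4%. Its neighbours Mir667 (238 ± 6.35 CPM) and Mir669l (234 ± 25.7) lay well within that spread.

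Mir149 had the most reads of the 8, at 24868 and 26129 CPM, a mean of 25498 ± 892, and ranked 8 among all genes in both libraries. Its neighbours were Mir130a at 29264 ± 2733 CPM and Mir99b at 24269 ± 678. The ranges of Mir149 and Mir99b over the libraries did not overlap, by a narrow margin, as Mir99b reached 24749 CPM in replicate 1. Mir708 stood at 4445 and 3886 CPM, a mean of 4166 ± 395, and Mir488 at 251 and 234 CPM, a mean of 242 ± 11.9. The hosts of the cell surface thus carried both the highest member and the second lowest by mean. Mir541 lay next below Mir708 at 4064 ± 413 CPM, and Mir221 (244 ± 36.8) and Mir16-2 (242 ± 16.2) lay either side of Mir488, all within 1 SD of the member.

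Mir598 had the closest values of the 8, at 4237 and 4232 CPM in replicates 1 and 2, a mean of 4234 ± 4.04. Mir18, next above it, had nearly the same mean at 4241 ± 837 CPM but ran from 4833 to 3650 CPM. Mir383 stood at 473 and 583 CPM, a mean of 528 ± 77.9, between Mir195a at 535 ± 10.04 and Mir540 at 477 ± 39.98. Replicate 2 was the higher library for Mir383, as it was for Mir346 and Mir149.

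**Figure D2:**
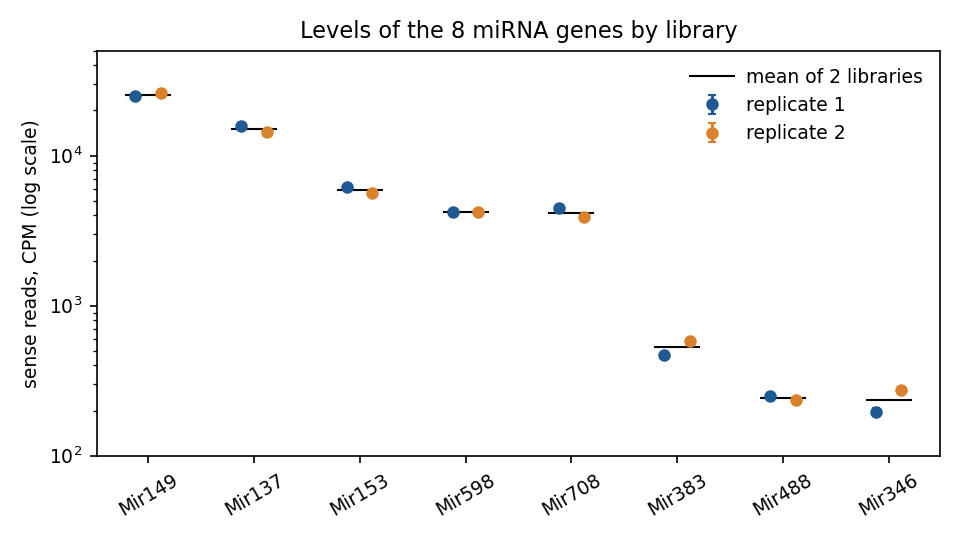
Levels of the 8 genes in each library, in CPM of sense reads on a log axis. Points are libraries with 95% Wilson intervals, mostly smaller than the points, and black lines are means. Mir149 leads at 24868 and 26129 CPM, and Mir346 and Mir488 lie lowest, at 197 to 275 CPM.

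In order of mean level the genes were Mir149, Mir137, Mir153, Mir598, Mir708, Mir383, Mir488 and Mir346. The ranges over the libraries did not overlap for 5 of the 7 neighbouring pairs. The widest step was the 7.89-fold one from Mir708 to Mir383 (9.41-fold in replicate 1 and 6.67-fold in replicate 2), and Mir149 exceeded Mir137 by 1.69-fold. The others overlapped. Mir598 and Mir708 differed by 1.02-fold in the mean, with Mir708 the higher in replicate 1 and Mir598 in replicate 2. Mir488 and Mir346 differed by 1.03-fold, with Mir488 the higher in replicate 1 and Mir346 in replicate 2. From highest to lowest the set spanned 126-fold in replicate 1, where Mir346 was lowest, and 112-fold in replicate 2, where Mir488 was. No test was run between genes, since with 2 libraries a two-sided exact permutation test has 0.333 as its smallest p.

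Mir708 and Mir28a, whose 5p arms have the same seed, AGGAGCU, can be set side by side. The levels of Mir28a were 578 and 551 CPM in replicates 1 and 2, a mean of 565 ± 19.1. Mir708 exceeded it 7.69-fold and 7.05-fold, and held 88.5% and 87.6% of the reads of the pair. Their ranges did not overlap. The counts join both arms of each gene, so these are not shares of the reads with that seed. Of the genes sharing a seed with the 3p arm of Mir149, Mir7016 had the highest mean, at 2.06 ± 1.08 CPM, and the gene sharing one with the 3p arm of Mir346, Mir7001, had 0 reads.

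The libraries were then compared gene by gene, as a check of how firmly each level is known. An exact binomial test of the reads in replicate 2 against replicate 1, adjusted over all 411 detected genes, compares these libraries for counting error alone. It called 6 of the 8 members, 3 higher in each library, where it called 47.4% of all tested genes, 29.2% higher in replicate 1 and 18.2% higher in replicate 2. With TMM scaling, which allows for a few abundant genes moving the totals, the calls over all genes were 95 higher in replicate 1 and 90 in replicate 2, in place of 120 and 75. The gap between the libraries was under 1.5-fold for all 8 members, for 206 of the 210 detected genes at 100 CPM or more, the range in which all members lie, and for 369 of the 411 detected genes (89.8%). The median size of the log2 ratio was 0.14 for the members and 0.18 for all tested genes.

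Of the members higher in replicate 2, Mir346 had a log2 ratio of replicate 2 over replicate 1 of 0.48 (95% exact interval 0.37 to 0.59), or 1.40-fold, with an adjusted exact binomial p of 4.57e-17. Of tested genes 85.2% had a smaller gap. Mir383 had a ratio of 0.30 (0.23 to 0.38; adjusted exact binomial p = 2.67e-15) and Mir149 one of 0.07 (0.06 to 0.08; adjusted exact binomial p = 1.24e-39). The p-value was smaller for Mir149 than for Mir346 although its ratio was far smaller, as Mir149 had 126-fold the reads of Mir346 in replicate 1.

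Of the members higher in replicate 1, Mir708 had a log2 ratio of -0.19 (95% exact interval -0.22 to -0.17; adjusted exact binomial p = 2.40e-47). Mir137 followed at -0.14 (-0.16 to -0.13; adjusted exact binomial p = 7.68e-95) and Mir153 at -0.13 (-0.16 to -0.11; adjusted exact binomial p = 1.19e-32). Mir488 at -0.10 (-0.21 to 0.01) and Mir598 at -0.0019 (-0.028 to 0.024) did not pass, with adjusted exact binomial p of 0.126 and 0.944. With TMM scaling Mir598 turned to 0.05 and passed, at an adjusted exact binomial p of 0.00128. With all reads in the table as denominator it passed the other way, at -0.03 (adjusted exact binomial p = 0.0305). Mir488 passed there too, at -0.13 (adjusted exact binomial p = 0.0361). The direction of the Mir598 call thus depended on the scaling.

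**Figure D3:**
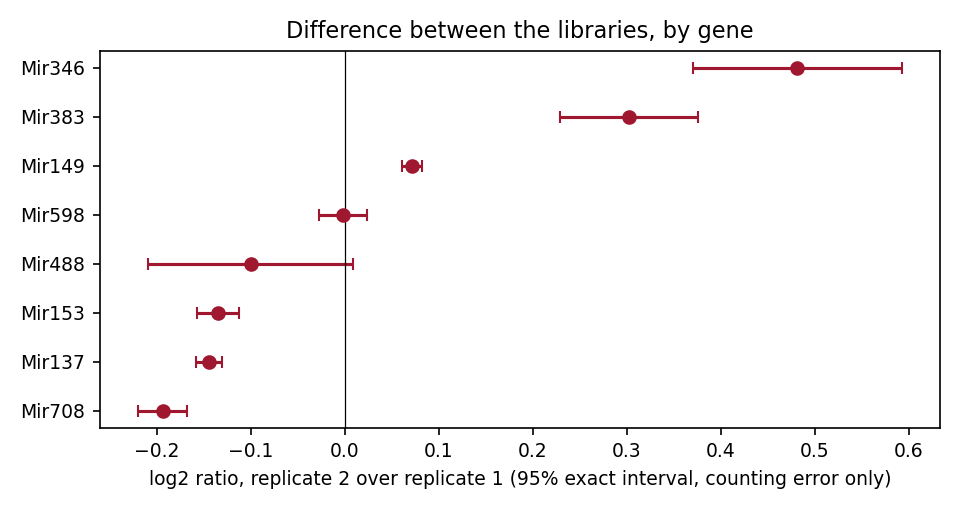
Log2 ratio of replicate 2 over replicate 1 for each gene, from CPM, with 95% exact intervals for counting error. Mir346 and Mir383 stand apart at 0.48 and 0.30, and the other 6 lie between -0.19 and 0.07.

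A test that also allows for spread between pools called none of them. In edgeR's exact test the biological coefficient of variation (BCV) was set rather than estimated. At a BCV of 0.1, 0 of the 8 members passed and the lowest adjusted p was 0.373, that of Mir346, against 9 of 411 tested genes called (2.19%). At an unadjusted p under 0.05, 1 member did, Mir346. At a BCV of 0.2, 0 members passed adjusted or unadjusted, against 1.46% of tested genes. The spread that edgeR fitted at the level of these genes, from both libraries taken as 1 group, was a trended BCV of 10.1% for Mir137 and 19.0% for Mir346. Of the lists of other cells, all 7 epithelial genes were lower in replicate 2 by the exact binomial test, from Mir200a at a log2 ratio of -3.03 and Mir429 at -2.82 to Mir203, the most abundant, at -0.20. At a BCV of 0.1, 5 of the 7 passed in edgeR. Their sum had a ratio of -0.95 and the choroid plexus sum one of -0.27. The blood sum was higher by 0.25 and the oligodendrocyte sum by 0.16. Within these lists Mir211 of choroid plexus (0.14), Mir144 of blood (-0.18) and the oligodendrocyte Mir219a-1 (-0.19) went against their sums. The part of such cells in the ratios of the 8 genes was not tested.

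**Figure D4:**
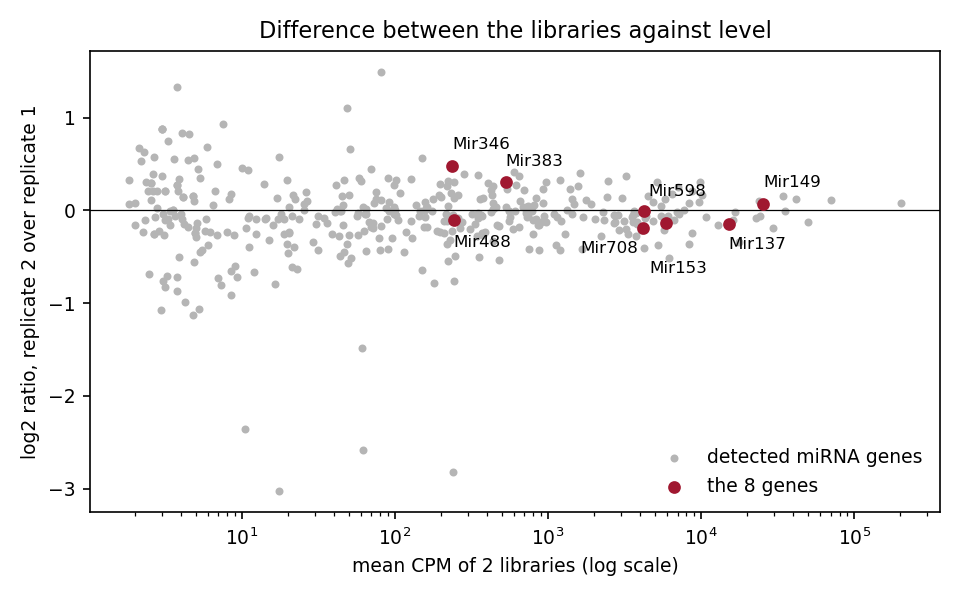
Log2 ratio of replicate 2 over replicate 1 against mean CPM (log axis) for the 411 detected genes in grey, with the 8 genes in red. All 8 lie within 1.5-fold, as do 206 of the 210 detected genes at 100 CPM or more. Mir346 is the highest of the 8, at 0.48.

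Neuronal miRNA genes with several copies or in clusters gave other values. Of 21 such genes analysed 19 were detected, and the 21 ran from Mir124a-3 at 0.54 CPM up to Mir135b, with a median of 389 CPM. The 6 genes of mir-128, mir-129 and mir-138, miRNAs of maturing neurons, had a median of 795 CPM and were led by Mir128-1 at 2456 ± 387. By the exact binomial test 5 of these were higher in replicate 2, with log2 ratios from 0.23 to 0.38, and 0 in replicate 1, and Mir129-1 at 0.12 did not pass. In the mir-124 and mir-9 genes, 5 analysed, 3 were detected. Over the 19 detected genes 8 were higher in replicate 2 and 5 in replicate 1 by that test, which called 18.2% and 29.2% of all tested genes in these directions. With edgeR's exact test at a BCV of 0.1, 0 of the 19 passed, 1 was under 0.05 unadjusted, and the lowest adjusted p was 0.498. No test of the difference between these genes and the 8 single-copy ones was run. Reads that match several copies belong to no gene, so the level of a gene with copies can fall below that of its miRNA. The hairpins of the mir-128, mir-138 and mir-129 pairs shared runs of 23, 24 and 26 bases. How many reads were left out for this was not tested.

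Reads on the strand opposite the gene were absent at 7 of the 8 members. This held too for Mir153 and Mir488, which lie opposite the annotated antisense genes Gm5441 and Gm37679. Of the 411 detected genes, 364 had no opposite-strand read (88.6%). With both strands counted, the order of the 8 genes was the same.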

How the data were processed

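The authors deposited 1 table of raw read counts for each library, by miRNA gene, on assembly mm10 with GENCODE annotation M4, per the description deposited with them. The aligner, counter and adapter trimming are not given in the sources used here. The tables have 3 count columns, for either strand, the sense strand and the opposite strand. The 4 rows that name no gene (53.7% and 54.7% of reads) were kept from totals and tests. Of 1973 gene identifiers, 1894 matched GENCODE M21, also on mm10, which gave names, places and hosts. Levels are sense reads per 1000000 sense reads (CPM). Ratios had 0.5 reads added. Each detected gene (10 or more reads in both libraries) was compared by a two-sided exact binomial test, Benjamini-Hochberg adjusted over all 411 at 0.05, and by edgeR's exact test with a fixed BCV. On counts simulated with counting error only, over 415 genes, the binomial test recovered 95 of 100 changes of 2-fold and 83 of 100 of 1.5-fold. It called 3 of 215 unchanged genes there. That share was set by the simulation, which held no spread between pools, and does not carry over to these libraries. A chi-square per degree of freedom of 85.8 over 410 degrees of freedom showed that the tables are not copies of 1 library. The labels call the libraries biological replicates.

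The members, lists and tests were chosen with earlier results of these data known. The genes named are the members, their hosts, the genes next to each in mean CPM, other miRNA genes in the same host or nearest to it, genes sharing a seed, and the listed neuronal and cell type genes. Alternatives were TMM and RLE scaling, all reads as denominator, either strand, other minimum counts, other added reads, fixed BCVs and each library alone. Software was Python 3.11.15, numpy 2.4.6, scipy 1.17.1, pandas 2.3.3, matplotlib 3.10.9, R 4.3.3 and edgeR 4.0.16.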

Additional observations from a re-analysis of the deposited data

Results flagged for a closer look

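Mir708 had reads on the strand opposite its hairpin, 23 in replicate 1 and 22 in replicate 2, more than the 3 reads that a count of 0 allows. The levels, ratios and tests above rest on sense reads and leave them out, apart from the alternative with both strands counted. They made up 0.084% and 0.106% of the reads on either strand of Mir708. Over all genes these shares were 2.56% and 2.49%.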

How the results depend on the processing

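No paired analysis was possible because there was 1 group. All 8 members were detected at each minimum tried (1, 50 and 100 reads) and in each library alone. With all reads in the table as denominator, the median member stood at 1875 CPM in place of 4200 and the members' share was 2.49% in place of 5.59%, since the rows that name no gene enter. With reads on either strand the share was 5.45%. In each library alone the median level ran from 4059 to 4341 CPM, the share from 5.53% to 5.65%, and 6 members kept their place in the order. The log2 ratio of Mir598 turned to 0.046 with TMM scaling and 0.047 with RLE scaling, and 4 rather than 5 members were then below 0. The members called numbered 7 with TMM or RLE scaling and 8 with all reads as denominator, against 6. With edgeR's exact test 0 members were called at a BCV of 0.1, 0.2 or 0.4 (at an unadjusted p under 0.05, 1, 0 and 0), and the calls over all genes fell from 195 to 9, 6 and 0 (unadjusted, 40, 8 and 4), as the test allows for spread beyond counting error. Of genes called, the share higher in replicate 1 was 61.5%, 51.4% with TMM scaling and 68.6% with all reads as denominator. Depth did not limit the levels, as each member had 1210 or more reads in each library, while n = 2 limits the SD.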

Other observations

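Ratios between members within a library do not depend on how libraries are scaled. Over the 28 pairs of the 8 genes, all computed and picked out here after their values were seen, the ratio of Mir137 to Mir153 changed least, at 2.58 in replicate 1 and 2.57 in replicate 2. The ratio of Mir346 to Mir708 changed most, at 0.0442 and 0.0707, a 1.60-fold difference. Of the 28 pairs 3 changed by more than 1.5-fold, all with Mir346, namely those with Mir708, Mir137 and Mir153.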
